A study of Rattus norvegicus with 48 samples.

Results

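In cerebral endothelial cells (CECs) sorted from the cortex of fasted rats, 83 genes were lower after 1 day and after 3 days without food than in fed rats, while after 2 days their level was close to that of fed rats. They were chosen by this pattern. For each gene, the reads were divided by the sample's total and multiplied by 1e+06 (CPM), then put on a scale of log2(CPM + 0.1), and a gene was taken when its mean at day 1 and its mean at day 3 were each at least 0.4 below both the fed mean and the day 2 mean, with no more than 0.3 between fed and day 2. The rule was applied to the 9461 genes with a mean of at least 100 reads, out of 32624 annotated features. Since these differences chose the genes, their sizes are given below as a description without a test.

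The animals were adult male Wistar-Han rats. Those of the AL group ate ad libitum, and those of the F1, F2 and F3 groups went without food for 1, 2 and 3 days. The labels give no genetic change and no agent for any group. Each group had 3 samples, called i, j and k, from independent experiments, each sample pooling the tissue of several animals, so that single rats cannot be seen. CECs were selected with CD31 antibodies after removal of CD11b-positive cells, and polyadenylated RNA was sequenced as 4 technical replicates per sample, summed here to between 20718644 and 25960874 assigned reads. Technical replicate d of F1 sample k is named as F1 in its title but as a 2 day fast in its treatment label. It was kept in F1, and 81 genes met the rule without it, of which 78 were among the 83.

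CECs form the blood-brain barrier, where tight junctions close the gaps between cells and carriers and efflux pumps in the membrane decide what enters the brain. During a fast, the body turns from glucose to fatty acids and ketone bodies, and the cells of this barrier stay in contact with the changing blood. Only a few of the genes could be named, nearly all with symbols that begin with A, B or C. They belong to several functions, among them transcription factors, activators of GTP hydrolysis by small GTPases, membrane transport and lipid metabolism.

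The endothelial label was checked on the markers that had a symbol. Pecam1, which encodes CD31, lay between 1310 and 1589 CPM in the 12 samples. The summed level of Pecam1, the glucose transporter Slc2a1, the efflux pump Abcb1a and the anion carrier Slco1c1 was 20652 to 22212 CPM in AL and 24002 to 25934 CPM in the 9 fasted samples. Most of this sum was Slc2a1, with means of 12207 CPM in AL and 15814, 15760 and 16971 CPM in F1, F2 and F3. Slco1c1 took the course of the 83 genes with smaller differences, its means being 4746 CPM in AL, 3722 CPM in F1, 4446 CPM in F2 and 3703 CPM in F3. All its AL and F2 samples lay above all its F1 and F3 samples, and its smallest margin of 0.26 was short of the rule. Of 15 pericyte and smooth muscle markers, 3 had a symbol (Abcc9, Anpep and Acta2), with a sum of 82.9 to 192 CPM in AL, 85.4 to 98.2 CPM in F1, 105 to 199 CPM in F2 and 70.4 to 184 CPM in F3. Of 14 microglia markers, 6 had a symbol, with a sum of 2.32 to 5.55 CPM over all samples. Of the astrocyte markers only Aldoc had a symbol, with 62.9 to 96.0 CPM and means of 85.2, 81.6, 79.0 and 65.3 CPM in AL, F1, F2 and F3. No marker of neurons, oligodendrocytes or fibroblasts had a symbol.

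Of the 83 genes, 12 had a gene symbol, 1 had only the name of a genomic clone (AABR07063082.1) and 70 had an Ensembl identifier alone. The symbols used here came from an incomplete list, in which 1264 of the 9461 genes had one. Those of the named genes and of the markers and pathway genes found began with A, B or C, apart from Slc and Slco carriers and Pecam1. The named genes are therefore a minority set by the list and not a sample of the 83. They comprised 4 transcription regulators (Atf3, Bcl6b, Ahdc1 and Ahr), 2 activators of GTP hydrolysis by small GTPases (Arhgap20 and Asap3) and the cilium gene Cc2d2a. A further 3 were genes of membrane transport and pH (Car4, Slc43a2 and Abcc10), and 2 were lipid-linked enzymes (Acsl3 and Aldh3b1). This grouping was made after the members were known.

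Promoter windows from RefSeq (build GRCr8, 250 bases before to 50 bases after the gene start) were found for 10 of the 12 named genes, and 14 motifs were looked for on both strands. The box GGGCGG was present in 7 of the 10 windows (70%), beside 34.9% of 27457 windows of all genes and 68.1% of the 924 windows of named genes with at least 100 reads. CCAAT was present in 3 windows (30%), beside 37.7% of all windows and 38.1% of the 924. The share of GGGCGG was thus close to that of other genes measured in these cells. The 3 windows with both motifs are shown because they hold the letters that recur among the named genes, with only the 250 bases before the start, 5′ to 3′ on the strand of the gene. Capitals mark GGGCGG or its reverse complement CCGCCC, and CCAAT or its reverse complement ATTGG.
Acsl3, chr9:87563351-87563600 (+ strand): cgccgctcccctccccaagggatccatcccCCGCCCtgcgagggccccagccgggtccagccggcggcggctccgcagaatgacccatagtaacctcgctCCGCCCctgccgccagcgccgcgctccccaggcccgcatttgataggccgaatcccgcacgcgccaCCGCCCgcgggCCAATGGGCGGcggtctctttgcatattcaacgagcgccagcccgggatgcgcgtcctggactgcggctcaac
Slc43a2, chr10:60874588-60874837 (+ strand): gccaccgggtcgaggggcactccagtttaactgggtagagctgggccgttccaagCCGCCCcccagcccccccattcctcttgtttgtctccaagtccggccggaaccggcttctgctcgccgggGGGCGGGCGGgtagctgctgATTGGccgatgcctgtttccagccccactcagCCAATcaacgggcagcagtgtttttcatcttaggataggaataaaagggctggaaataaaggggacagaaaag
Ahdc1, chr5:150512628-150512877 (+ strand): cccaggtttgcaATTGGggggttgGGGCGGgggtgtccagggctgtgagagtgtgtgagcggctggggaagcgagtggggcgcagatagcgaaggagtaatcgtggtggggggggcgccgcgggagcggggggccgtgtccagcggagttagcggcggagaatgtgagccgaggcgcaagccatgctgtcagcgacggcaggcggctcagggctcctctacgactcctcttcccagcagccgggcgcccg
CCAAT on the gene's own strand began 73 bases before the start in both Acsl3 and Slc43a2. In Ahdc1 the match was on the opposite strand, 238 bases before the start. TATAAA was found in the window of Car4 alone (10%, beside 14.3% of all windows and 7.25% of the 924), at 19 bases after the start. No window held the E-box CACGTG, the heat shock element GAANNTTC, the cAMP-response element TGACGTCA or the AP-1 site TGANTCA. They were held by 6.65%, 8.34%, 1.91% and 7.33% of all windows, and by 10.1%, 5.3%, 3.35% and 3.79% of the 924. Of the other motifs, TTCNNGAA and CCATGTTT, held by 8.49% and 1.27% of all windows, and the longer motifs of NRF1, serum response factor, DR1 nuclear receptors, the glucocorticoid receptor and NF-kB, held by 0.0401% to 0.932% of all windows, were also without a match. The absence of these letters in 10 short windows says nothing of the factors that bind them.

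The mean of AL and F2 minus the mean of F1 and F3, on the log2(CPM + 0.1) scale, is called the dip of a gene below. The dip of the 83 genes had a median of 0.63 and a range of 0.42 to 1.26, the median being a level lower by 35.4% in F1 and F3. Over all 9461 genes the median dip was 0.04. The median difference was 0.64 between AL and F1, 0.68 between AL and F3, 0.54 between F2 and F1 and 0.62 between F2 and F3. The median distances from F2 were slightly smaller than those from AL. The rule itself kept these distances alike by allowing at most 0.3 between AL and F2. Together the 83 genes held 0.647% to 0.851% of the assigned reads in the AL and F2 samples and 0.402% to 0.478% in the F1 and F3 samples.

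**Figure D1:**
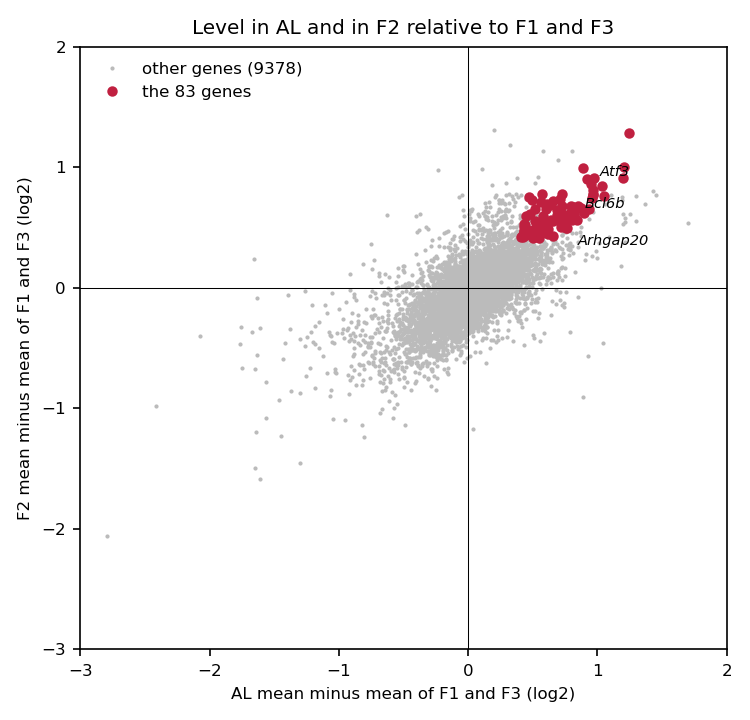
Difference of the AL mean (horizontal axis) and of the F2 mean (vertical axis) from the mean of F1 and F3, on the log2(CPM + 0.1) scale, for each gene with at least 100 reads on average. The 83 genes (red) lie at the upper right edge of the cloud of 9461 genes because the rule placed them there, and their median dip, the mean of both differences, is 0.63.

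In single samples, the median of the 83 genes relative to their own means over the 12 samples was 0.49, 0.21 and 0.33 in AL samples i, j and k, and 0.21, 0.39 and 0.25 in F2. It was −0.33, −0.30 and −0.16 in F1, and −0.46, −0.27 and −0.31 in F3. AL sample i stood highest and F3 sample i lowest, and no F1 or F3 sample reached the level of an AL or F2 sample. The medians of all 9461 genes lay between −0.03 and 0.06 in the same samples. Of the 3 pericyte and smooth muscle markers, Abcc9 had means of 105, 71.9, 128 and 101 CPM in AL, F1, F2 and F3, a difference of 0.42 between AL with F2 and F1 with F3 on the log2 scale. Anpep had means of 17.0, 10.4, 20.7 and 15.1 CPM and a difference of 0.57, and Acta2 had 7.01, 8.44, 12.1 and 9.28 CPM and a difference of 0.09. For Abcc9 and Anpep the means of F1 and F3 were thus below those of AL and F2, while single samples overlapped. Abcc9 was at 66.2 to 75.4 CPM in F1 and at 150, 52.3 and 102 CPM in F3, against 156, 93.2 and 65.5 CPM in AL samples i, j and k. The part of mural cells in the pattern was not tested, and in sorted bulk samples fewer cells of a type and less RNA per cell cannot be told apart.

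**Figure D2:**
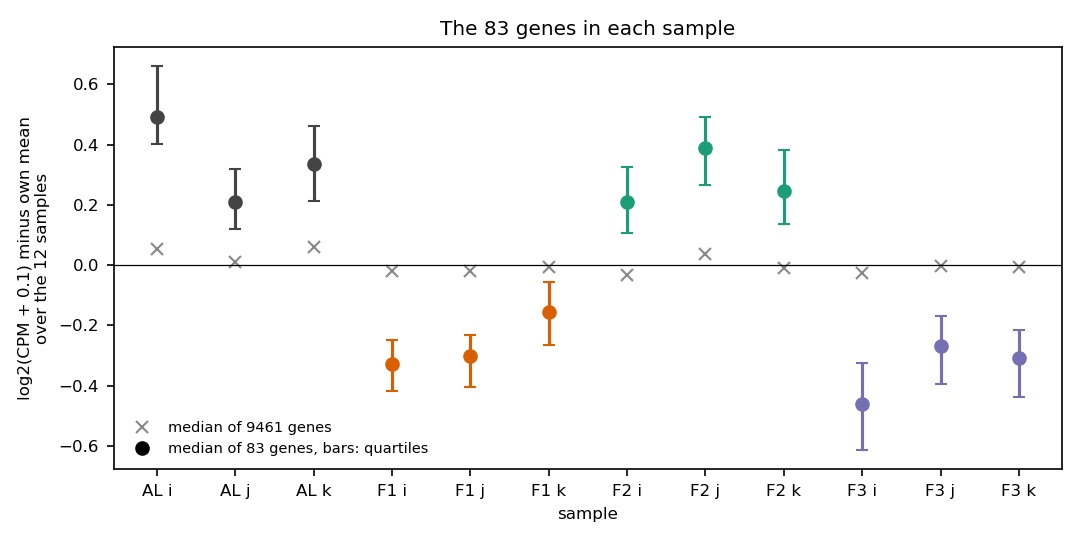
Median (points) and quartiles (bars) of the 83 genes in each sample, as log2(CPM + 0.1) minus the gene's mean over the 12 samples, with the median of all 9461 genes as crosses. AL and F2 samples lie between 0.21 and 0.49, F1 and F3 samples between −0.46 and −0.16.

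In 59 of the 83 genes (71.1%), all 6 AL and F2 samples lay above all 6 F1 and F3 samples, which 4.51% of the 9461 genes did. In the quasi-likelihood test of edgeR, adjusted over 13050 genes, 44 of the 83 were lower in F1 than in AL at an adjusted p of at most 0.05 (2.64% of all genes tested) and 62 were lower in F3 than in AL (5.73%). Against F2, 24 were lower in F1 (0.406% of all genes) and 55 in F3 (2.3%). None passed between F2 and AL, in either direction (0.92% of all genes). All these counts use the contrasts that chose the genes and add no evidence for the pattern. The F1 and F3 differences also share the AL and F2 samples.

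Among the transcription regulators, Atf3 (ENSRNOG00000003745), a stress-induced factor of the ATF/CREB family, had the largest dip of the 12 named genes but also a wide spread. Its level was 657, 385 and 210 CPM in AL, 266, 233 and 155 CPM in F1, 294, 498 and 300 CPM in F2, and 165, 173 and 195 CPM in F3. AL sample k, at 210 CPM, lay within the range of F1, so that the groups overlapped, while all F3 samples lay below all AL and F2 samples. The dip was 0.91 on the log2 scale (46.7% lower), with a within-group SD of 0.51. Without AL sample i, Atf3 no longer met the rule, and the same held without AL sample k and without F2 sample j.

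Atf3 was the 1 named gene of the 83 that stood in any of 26 lists of pathways and cell markers. These held 443 genes, of which 58 had a symbol here, and the others could not be looked up. Of 31 immediate early genes, 3 had a symbol, while Fos, Jun and Egr1 were among those without one. Of the other immediate early genes with a symbol, Btg2, an antiproliferative gene, had means of 1856 ± 611 (SD, n = 3), 1862 ± 165, 2109 ± 294 and 1793 ± 136 CPM in AL, F1, F2 and F3. Arc, a cytoskeleton-associated early gene best known from neurons, lay between 1.45 and 5.48 CPM. The means of Arc, with 80.3 reads on average and so below the read filter of the rule, were 3.37, 2.92, 4.21 and 2.94 CPM in the same order. The dips were 0.09 for Btg2 and 0.29 for Arc.

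Bcl6b (ENSRNOG00000059956), a zinc finger repressor related to Bcl6, was among the most deeply read genes of the 83, with 10454 reads on average. It had 642, 590 and 519 CPM in AL, 352, 321 and 367 CPM in F1, 447, 618 and 480 CPM in F2, and 279, 322 and 349 CPM in F3. The lowest AL or F2 sample (447 CPM) lay above the highest F1 or F3 sample (367 CPM), and the dip was 0.72 (39.4% lower). Its paralogue Bcl6, with 180 reads on average, had means of 6.01 CPM in AL, 8.04 CPM in F1, 7.28 CPM in F2 and 8.69 CPM in F3. Single samples overlapped, with up to 7.26 CPM in AL and as little as 6.80 CPM in F1 and 7.01 CPM in F3. Bcl6 did not pass at an adjusted p of at most 0.05 in F1, F2 or F3 against AL (edgeR).

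Ahdc1 (ENSRNOG00000042855), which encodes an AT-hook DNA-binding protein, showed the narrowest groups of the named genes, with a within-group SD of 0.13 on the log2 scale. It had 39.2, 35.7 and 36.0 CPM in AL, 23.2, 23.7 and 23.7 CPM in F1, 33.7, 35.8 and 32.8 CPM in F2, and 18.6, 23.2 and 25.8 CPM in F3. No F1 or F3 sample came above 25.8 CPM and no AL or F2 sample below 32.8 CPM. Ahdc1 and Cc2d2a were the named genes that met the rule whichever of the 12 samples was left out.

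Ahr (ENSRNOG00000004342), the receptor for dioxin-like and other aromatic ligands, met the rule by a small margin and on few reads, with as few as 70 in 1 sample. It had 7.06, 10.3 and 8.11 CPM in AL, 2.94, 6.28 and 8.89 CPM in F1, 8.81, 6.67 and 8.03 CPM in F2, and 2.70, 9.79 and 7.33 CPM in F3. The groups overlapped, and the low means of F1 and F3 came from sample i of each, the other samples lying between 6.28 and 9.79 CPM. Its within-group SD of 0.65 exceeded its dip of 0.51. The dip was 0.24 without F3 sample i and 0.29 without F1 sample i.

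The activators of GTP hydrolysis act on the small GTPases that organise actin and vesicle traffic. Arhgap20 (ENSRNOG00000025624), a GTPase-activating protein, had 47.9, 34.8 and 42.6 CPM in AL, 22.9, 23.0 and 26.4 CPM in F1, 28.8, 34.2 and 42.2 CPM in F2, and 22.0, 27.3 and 26.1 CPM in F3. The groups did not overlap, but F2 sample i (28.8 CPM) lay close to F3 sample j (27.3 CPM). The dip was 0.63 (35.2% lower). Of the 22 genes with an Arhgap symbol and at least 100 reads, Arhgap20 alone met the rule, as 83 of all 9461 genes did. The dip of the other 21 ranged from −0.68 to 0.39 with a median of −0.07.

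The family also held the mirror image. Arhgap31, a regulator of Rac and Cdc42, had means of 727 CPM in AL, 1148 CPM in F1, 782 CPM in F2 and 1241 CPM in F3, the lowest dip of the 22. Arhgap23 and Arhgap29 were the nearest to Arhgap20, with dips of 0.39 and 0.37, and each fell short of the rule by its margin between F2 and a fasting group (smallest margins 0.28 and 0.27).

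Asap3 (ENSRNOG00000049714) encodes an activator of GTP hydrolysis by Arf GTPases that is linked to focal adhesions. It had 32.3, 28.1 and 30.6 CPM in AL, 17.7, 19.4 and 23.6 CPM in F1, 26.4, 32.4 and 23.7 CPM in F2, and 12.9, 19.5 and 16.4 CPM in F3. The groups were separate by a narrow gap, since F2 sample k and F1 sample k both stood near 24 CPM. The dip was 0.68 (37.4% lower), against 0.09 for Asap2 and −0.12 for Asap1.

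In the group of membrane transport and pH, Car4 (ENSRNOG00000002916), a carbonic anhydrase anchored to the luminal surface of brain capillaries, had 338, 295 and 361 CPM in AL, 220, 236 and 252 CPM in F1, 274, 353 and 350 CPM in F2, and 234, 240 and 190 CPM in F3. All AL and F2 samples lay above 252 CPM, the highest F1 sample, and the dip was 0.52 (30.3% lower). Car2, the soluble form, had a dip of 0.12, with means between 40.3 and 47.6 CPM. Without F2 sample j or F2 sample k, Car4 did not meet the rule.

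Slc43a2 (ENSRNOG00000003835), a carrier of large neutral amino acids (LAT4), had 67.5, 53.3 and 64.4 CPM in AL, 42.8, 41.1 and 52.0 CPM in F1, 58.2, 63.4 and 61.2 CPM in F2, and 38.1, 52.3 and 45.5 CPM in F3. AL sample j (53.3 CPM) lay only just above F3 sample j (52.3 CPM). The dip of 0.44 (26.4% lower) was the smallest among the named genes.

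Abcc10 (ENSRNOG00000018863), the efflux pump MRP7, had 20.5, 17.1 and 16.2 CPM in AL, 14.3, 10.9 and 14.8 CPM in F1, 18.2, 20.1 and 18.3 CPM in F2, and 10.9, 15.4 and 13.7 CPM in F3. The groups did not overlap, with 16.2 CPM as the lowest AL sample and 15.4 CPM as the highest F3 sample. Of 6 Abcc genes with at least 100 reads, Abcc10 alone met the rule, as 83 of all 9461 genes did. The next dip was that of the mural marker Abcc9 (0.42, with 71.9 CPM in F1 but 101 CPM in F3), while Abcc1, Abcc4, Abcc5 and Abcc6 lay between −0.18 and 0.06.

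Of the lipid-linked enzymes, Acsl3 (ENSRNOG00000014718), an acyl-CoA synthetase that activates long-chain fatty acids and takes part in lipid droplet formation, had 86.6, 66.8 and 88.1 CPM in AL, 56.5, 59.1 and 65.0 CPM in F1, 77.2, 84.5 and 85.6 CPM in F2, and 54.0, 61.1 and 59.8 CPM in F3. AL sample j (66.8 CPM) was the lowest of AL and F2 and stood just above F1 sample k (65.0 CPM). The dip was 0.45 (27.0% lower). Its family member Acsl1 had a course of like shape, with means of 53.4 CPM in AL, 41.5 CPM in F1, 53.3 CPM in F2 and 40.4 CPM in F3, and with a smallest margin of 0.36 fell just short of the rule. Acsl5 and Acsl4 had dips of 0.05 and 0.01.

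Aldh3b1 (ENSRNOG00000017512), an aldehyde dehydrogenase that oxidises lipid-derived aldehydes, had 9.48, 5.88 and 6.66 CPM in AL, 4.79, 4.86 and 5.10 CPM in F1, 5.31, 7.90 and 6.69 CPM in F2, and 3.81, 6.06 and 4.99 CPM in F3. F3 sample j (6.06 CPM) lay above AL sample j and F2 sample i, so that the groups overlapped. The dip was 0.48 (28.3% lower), on as few as 99 reads in a sample. The other 7 Aldh genes with at least 100 reads had dips of −0.21 to 0.21.

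Cc2d2a (ENSRNOG00000059715), a protein of the transition zone at the base of the primary cilium, had 14.57, 10.96 and 11.49 CPM in AL, 9.58, 6.37 and 7.33 CPM in F1, 12.5, 9.64 and 12.9 CPM in F2, and 8.01, 6.47 and 8.07 CPM in F3. F2 sample j (9.64 CPM) and F1 sample i (9.58 CPM) nearly touched, and the other samples were further apart. The dip was 0.65 (36.2% lower).

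**Figure D3:**
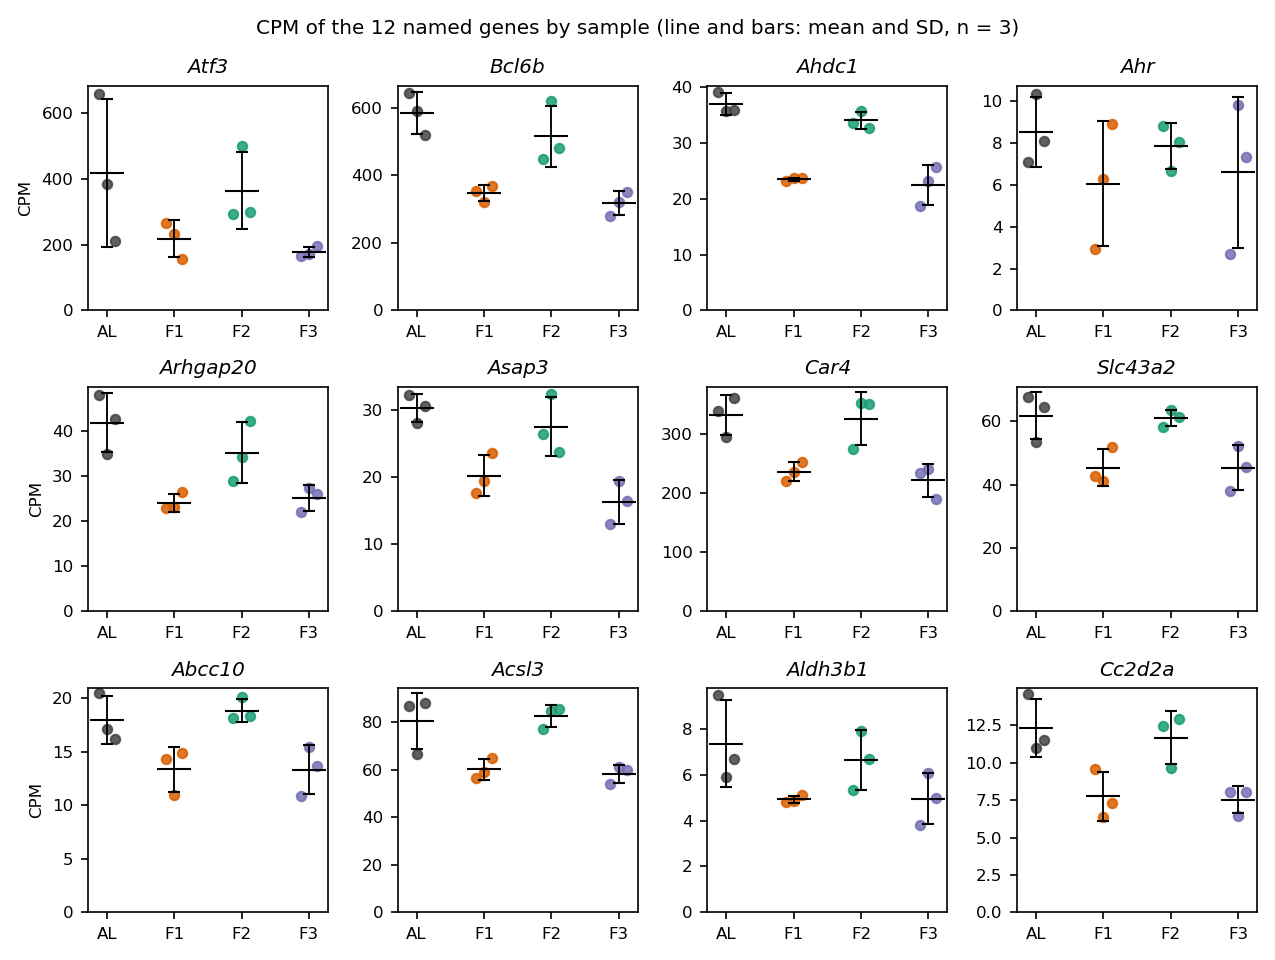
CPM of the 12 named genes in each of the 3 samples per group (points), with mean and SD (line and bars). F1 and F3 lie below AL and F2 in every panel by mean, and single samples overlap for Atf3, Ahr and Aldh3b1.

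**Figure D4:**
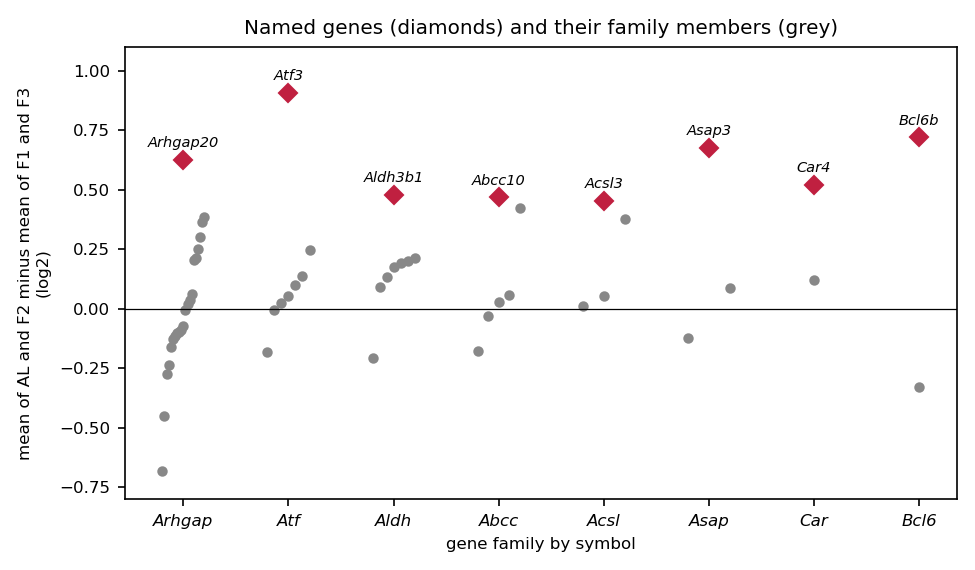
Mean of AL and F2 minus mean of F1 and F3, on the log2(CPM + 0.1) scale, for 8 of the named genes (red diamonds) and the other genes with at least 100 reads that share their symbol stem (grey). The nearest grey points are Abcc9 at 0.42, Arhgap23 at 0.39 and Acsl1 at 0.38.

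The 8 Atf genes with at least 100 reads completed the families. Atf4, the factor of the amino acid response, was nearest to Atf3 with a dip of 0.24, and the others lay between −0.18 and 0.14. In each of the families shown the named gene was the 1 that met the rule, which was certain for the named gene because each family was built around it. Over all genes the rule took 83 of 9461, so the absence of others in families this small says little. These families were set up by symbol after the members were known, and they cover only genes with a symbol.

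The 70 genes without a symbol and the clone transcript shared the pattern by construction, and some had a larger dip than any named gene. ENSRNOG00000019661 had the largest smallest margin of the 83 (1.14). It had 32.7, 11.8 and 15.1 CPM in AL, 7.27, 8.95 and 8.22 CPM in F1, 12.1, 34.0 and 15.4 CPM in F2, and 3.39, 10.9 and 9.41 CPM in F3. AL sample i and F2 sample j stood at more than 30 CPM, far above the rest, and AL sample j (11.8 CPM) was close to F3 sample j (10.9 CPM). The dip was 1.26 (58.3% lower), with a within-group SD of 0.71. AABR07063082.1 had a dip of 0.94 (47.9% lower) with no overlap between the groups.

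By abundance, 30 of the 83 genes had fewer than 300 reads on average. The median was 556 reads, against 866 reads for the 9461 genes. At the threshold, the last named genes inside were Ahr (smallest margin 0.42), Acsl3 (0.41) and Aldh3b1 (0.41). Among genes with a symbol, the first outside were Apln (0.37), Cars2 (0.37) and Cby1 (0.36). They encode the ligand of the apelin receptor, the mitochondrial cysteinyl-tRNA synthetase and an antagonist of beta-catenin. Genes without a symbol were left out of this ranking. Apln differed in form, its mean being 12.04 CPM in AL, 8.92 CPM in F1, 11.6 CPM in F2 and 6.01 CPM in F3.

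The choice of genes depended on the scaling of the samples. In CPM, AL was slightly high against the other groups for the typical gene. The median difference over all 9461 genes was 0.06 between AL and F1, 0.05 between AL and F3 and −0.06 between F2 and AL. Between AL and F1 it was 0.00 after TMM scaling. CPM thus slightly widened the margins of AL over F1 and F3. With TMM-scaled CPM, 57 genes met the rule, 56 of them among the 83, and Slc43a2, Abcc10, Acsl3 and Aldh3b1 no longer did. The median dip of the 83 was then 0.60. When each of the 12 samples was left out in turn, 61 to 108 genes met the rule, and 18 of the 83 did so every time.

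The pairwise comparison that the rule did not use directly was F3 against F1. The rule kept only genes low on both days, so this difference is not independent of the choice of genes. The comparison asks whether the 2 low points of the course differed. No gene of the 83 passed in either direction at an adjusted p of at most 0.05 with edgeR, and no gene of 13050 did (0%), while 9 of the 83 and 586 of all genes had an unadjusted p under 0.05. With the Wald test of DESeq2, 24 genes passed, among them 1 of the 83. This was ENSRNOG00000002969, at 86.7, 97.7 and 113 CPM in F1 and 64.5, 79.5 and 74.7 CPM in F3. Its LFC of F3 against F1 was −0.46 ± 0.10 (SE) in edgeR, with an adjusted p of 0.44 there and of 0.037 in DESeq2. The F3 samples lay below the F1 samples without overlap.

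Among the named genes, the LFC of F3 against F1 ranged from −0.33 for Asap3 to 0.11 for Ahr, with standard errors of 0.09 to 0.41. Asap3, the lowest, had an LFC of −0.33 ± 0.15 (SE) and an adjusted p of 0.99 (edgeR), and F1 and F3 overlapped in it. For Atf3 the LFC was −0.31 ± 0.32 (SE), for Bcl6b −0.15 ± 0.12, for Car4 −0.11 ± 0.11 and for Acsl3 −0.06 ± 0.09. A missing call does not show equal levels. The LFC was below 0 in 65 of the 83 genes, against 50.5% of all genes tested, with a median of −0.09. These genes share libraries and were chosen for low means on both days, so that this count is a description.

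The 83 genes also varied together within groups. After the group means were taken off, the correlation over the 12 samples had a median of 0.31 over the 3403 pairs of the 83 genes, and of 0.02 over all pairs of the 9461 genes. It was above 0.5 in 31.4% of the pairs of the 83 and in 15.96% of all pairs. In AL sample i, 72 of the 83 genes stood above their AL mean, in AL sample j 14 and in AL sample k 37. In F1 sample k 70 stood above their F1 mean, in F2 sample j 61 above their F2 mean, and in F3 samples i and j 15 and 63 above their F3 mean. F1 sample k holds the technical replicate with conflicting labels, but its technical replicates differed no more than those of other samples. The points share libraries and therefore depth and composition, and no test was made. The choice by group means also favours genes that are high in the same AL or F2 sample, or low in the same F1 or F3 sample. Without AL sample i 57 of the 83 still met the rule, and without F2 sample j 49. The correlation is therefore not independent of the choice of genes.

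Among named genes the within-group correlation was highest for Slc43a2 with Acsl3 (0.84) and with Asap3 (0.83), and for Arhgap20 with Acsl3 (0.83). Cc2d2a and Ahr were negatively correlated (−0.51). Atf3 varied with Bcl6b (0.64) and hardly with Slc43a2 (−0.04) or Acsl3 (−0.13). Over the 12 samples without removing group means, Bcl6b and Ahdc1 were the most alike pair (0.96), a value that the shared group pattern raises by the choice of genes. The spread within groups was larger in the 83 genes (median SD 0.20 on the log2 scale) than in the 9461 (0.13). The 83 genes also had fewer reads (median 556 against 866), and the part of read depth in this spread was not tested.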

How the data were processed

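RNA-seq of CECs from 12 samples, 3 each of AL, F1, F2 and F3, was analysed. The authors used STAR with the Ensembl 91 rat genome (Rnor_6.0), removed reads that mapped more than once and counted those on exons with HTSeq-count 0.5.3. The deposited files hold raw counts per gene. The strand setting of the counting is not given in the sources used here, so reads of overlapping antisense genes may be included.

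Technical replicates were summed (20718644 to 25960874 assigned reads per sample, 48 files in all), and CPM were calculated with a pseudocount of 0.1 before log2. Symbols came from the pairs of identifier and symbol in the study's supplementary tables, for 2043 of 32624 features. Genes with at least 1 read in each sample entered edgeR 4.0.16 (R 4.3.3), with TMM normalization, 1 model of 4 groups, the quasi-likelihood test, Benjamini-Hochberg adjustment and a threshold of 0.05. DESeq2 1.42.0 was an alternative. The scripts were tested on simulated data.

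The 83 genes, the gene lists and the tests were chosen with earlier results of these data known. The genes to be named were, among those with a symbol that is not a clone name, the 16 with the largest margins, the 10 with the most reads, those in a gene list, up to 10 past the threshold in F3 against F1, and the 3 nearest to the margin on each side, which took in all 12. Btg2, Arc, the family members and the identifiers without a symbol were named after their values were seen. Motifs were searched in RefSeq promoter windows of build GRCr8, matched by symbol, and no coordinate was carried over from the build of the counts. Alternatives were other scalings, pseudocounts, filters and margins, the 6 samples of F3 and F1 alone, a block for the sample letter, the omission of each sample in turn, and the omission of the technical replicate with conflicting labels.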

Additional observations from a re-analysis of the deposited data

How the results depend on the processing

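The number of genes that met the rule was 83, with 57 under TMM, 58 under DESeq2's size factors and 63 under upper-quartile scaling or a pseudocount of 1. It was 44 with a mean of at least 500 reads, 179 with margins of 0.3 and 39 with margins of 0.5. The share with no overlap, taken over the same 83 genes in each setting, was 67.5% under TMM, where it was lowest. Leaving out a sample can only keep or raise it. The dip of Ahr was 0.24 without F3 sample i and 0.29 without F1 sample i, against 0.51, and those of the other 11 named genes moved by less than 1.5 times in all alternatives run on them.

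Of F3 against F1, 24 of all genes and 1 of the 83 passed with DESeq2, and 11, 3 and 1 of all genes passed without a filter, with only the 6 samples compared and with the sample letter as a replicate block, against 0. Leaving out 1 sample gave 0 to 1 of all genes. None of the 83 passed under these edgeR settings. Letters were shared between groups, but the deviations of samples with the same letter correlated by only −0.02 to 0.14, and the replicate block changed no call among the 83. The LFC of Aldh3b1 changed sign with total counts (0.0091) and filterByExpr (0.000802). With samples left out in turn, LFCs that changed sign ranged from −0.18 to 0.12 for Cc2d2a, −0.18 to 0.0386 for Ahdc1, −0.0206 to 0.13 for Arhgap20, −0.13 to 0.0919 for Slc43a2, −0.14 to 0.10 for Abcc10, −0.29 to 0.49 for Ahr and −0.18 to 0.15 for Aldh3b1. The cause was not tested. With 3 samples per group and as few as 70 reads for Ahr and 99 for Aldh3b1 in a sample, small changes in these genes could not be resolved.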
